A study of Mus musculus with 12 samples.

Results

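The 39 genes described here encode the core machinery of autophagy and mitophagy. They were chosen by a list of mouse gene symbols and not by a cut on their values, though with earlier results of these data known. They make up 39 of the 25097 genes in the tables. The list follows the steps of the pathway in 8 groups: the ULK1 kinase complex (5 genes), the class III PI3-kinase complex (5), proteins that read PI3P or supply lipid (5), the conjugation enzymes of the ATG8 proteins (6), the ATG4 proteases (4), the ATG8 family itself (5), mitophagy receptors with PINK1 (4) and soluble cargo receptors (5). All 39 symbols were found by the gene identifiers of the tables, and 38 passed the filter on low counts. Atg4c, which encodes an ATG4 protease, did not pass: it had at most 0.0608 CPM in any library.

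Autophagy encloses cytoplasm in a double membrane, the autophagosome, and delivers it to lysosomes. A kinase complex around ULK1 starts the process, a PI3-kinase marks the membrane with the lipid PI3P, and ubiquitin-like enzymes attach small ATG8 proteins to it, which in turn bind cargo receptors. Maturing red cells remove their mitochondria by this route, and in the mouse the outer-membrane receptor encoded by Bnip3l is known to be needed for that removal.

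RNA was sequenced from mouse G1E-ER-GATA-1 cells, an erythroid precursor line that lacks GATA-1 of its own and carries a fusion of GATA-1 with an estrogen receptor domain, which estradiol switches on. The 12 libraries form 4 groups of 3. Mutant cells with estradiol and 5-ALA are Alas2 cis-element mutants, which the labels also call double mutant, given 1 µM beta-estradiol and 1 mM 5-aminolevulinic acid (5-ALA), the precursor of heme that ALAS2 makes, for 48 hours. Mutant cells without 5-ALA had the same hormone for the same time. WT cells with estradiol had 1 µM beta-estradiol for 48 hours, and untreated WT cells had neither agent. All 4 groups share the fusion protein and IMDM medium with fetal bovine serum, erythropoietin, conditioned medium that supplies Kit ligand, and puromycin. There are no untreated mutant cells among the samples and no WT cells with 5-ALA. The labels do not give the number of mutant lines, and nothing says that replicates are separate cultures, so p-values measure the spread between these libraries, which may be technical.

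Libraries held between 20309085 and 43548387 expected counts. Levels are given as CPM after TMM scaling, and fold changes on the log2 scale are from the edgeR quasi-likelihood test. A gene is called when its Benjamini-Hochberg adjusted p over the 12115 tested genes is below 0.05. Alas2, the gene whose elements are mutated, had 12.4, 12.5 and 12.1 CPM in mutant cells with 5-ALA, 9.48, 8.24 and 5.20 CPM in mutant cells without 5-ALA, 4309, 4290.5 and 4279.5 CPM in WT cells with estradiol and 4.92, 5.96 and 4.47 CPM in untreated WT cells. Erythroid markers (9 genes, globins included) summed to 54029 to 57109.7 CPM in mutant cells with 5-ALA, 17101 to 17688 CPM in mutant cells without it, 56973 to 57698 CPM in WT cells with estradiol and 576 to 591 CPM in untreated WT cells. Lymphocyte and fibroblast markers summed to at most 0.228 CPM in any library. Mast cell markers, nearly all of it Cpa3, summed to 134 to 149.7 CPM in untreated WT cells and to at most 1.44 CPM in the other groups. Megakaryocyte markers summed to 702 to 719 CPM in mutant cells with 5-ALA and 395 to 411 CPM in mutant cells without it. Their sum was 1806 to 1831 CPM in WT cells with estradiol and 177 to 184 CPM in untreated WT cells. In the groups with estradiol it was mostly the integrin gene Itgb3, and Gp1bb was at 0 in every library. The list did not move as one: Itga2b averaged 21.2 CPM in WT cells with estradiol and 60.8 CPM in untreated WT cells. Pf4 likewise averaged 2.37 CPM with estradiol and 28.4 CPM without. Itgb3 rose from 87.9 to 1784 CPM, and Gp9 and Vwf also rose, to 3.3 and 4.7 CPM.

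**Figure D1:**
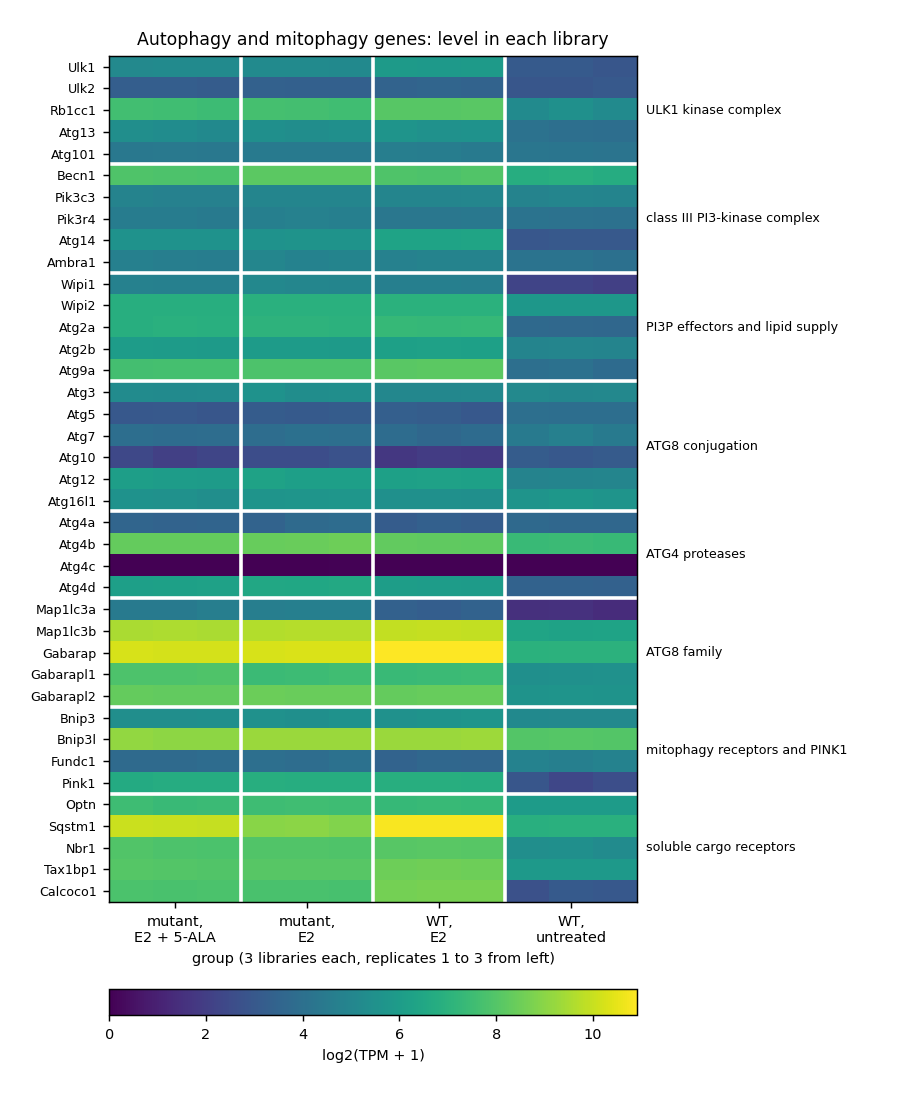
The heat map gives log2(TPM + 1) of the 39 genes, grouped by step of the pathway, in each of the 12 libraries. Replicates of a group look alike, and the step in colour between WT cells with estradiol and untreated WT cells runs through most rows of the ATG8 family and of the cargo receptors.

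Per length of transcript the list spans a wide range in each group. In mutant cells with 5-ALA the most abundant members were Gabarap (1197 TPM), Sqstm1 (1013 TPM), Map1lc3b (745 TPM) and Bnip3l (537 TPM). In mutant cells without 5-ALA they were Gabarap (1241 TPM), Map1lc3b (818 TPM), Bnip3l (618 TPM) and Sqstm1 (486 TPM). In WT cells with estradiol they were Gabarap (1911 TPM), Sqstm1 (1781 TPM), Map1lc3b (969 TPM) and Bnip3l (628 TPM). In these 3 groups the neighbours in the order lay further apart than their libraries spread. In untreated WT cells the order was Bnip3l (255 TPM), Atg4b (168 TPM), Gabarap (126 TPM), Sqstm1 (120.1 TPM) and Becn1 (111 TPM), and the last 3 were close: every library of Gabarap was above every one of Sqstm1, and every one of Sqstm1 above every one of Becn1, but by margins of a few TPM. Calcoco1, at 404 TPM, was the 5th in WT cells with estradiol and, at 6.67 TPM, the 35th in untreated WT cells.

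How the machinery changes when GATA-1 is activated was asked in WT cells, with estradiol against untreated. Nearly the whole list rose: 33 of the 38 tested genes were called higher and 5 lower. Of all tested genes 89.7% were called in this comparison, 43.3% higher and 46.4% lower, so being called says little here, while 33 of 38 in one direction stands beside 43.3%. The median log2 fold change was 1.603 over the 38 genes and -0.03 over all genes, and 28 of the 38 (73.7%) differed by 2-fold or more, against 57.2% of all genes. The sum of the erythroid markers also rose in this comparison, as given above, and its part in these changes was not tested. In bulk RNA, more cells with a transcript and more of it per cell cannot be told apart.

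**Figure D2:**
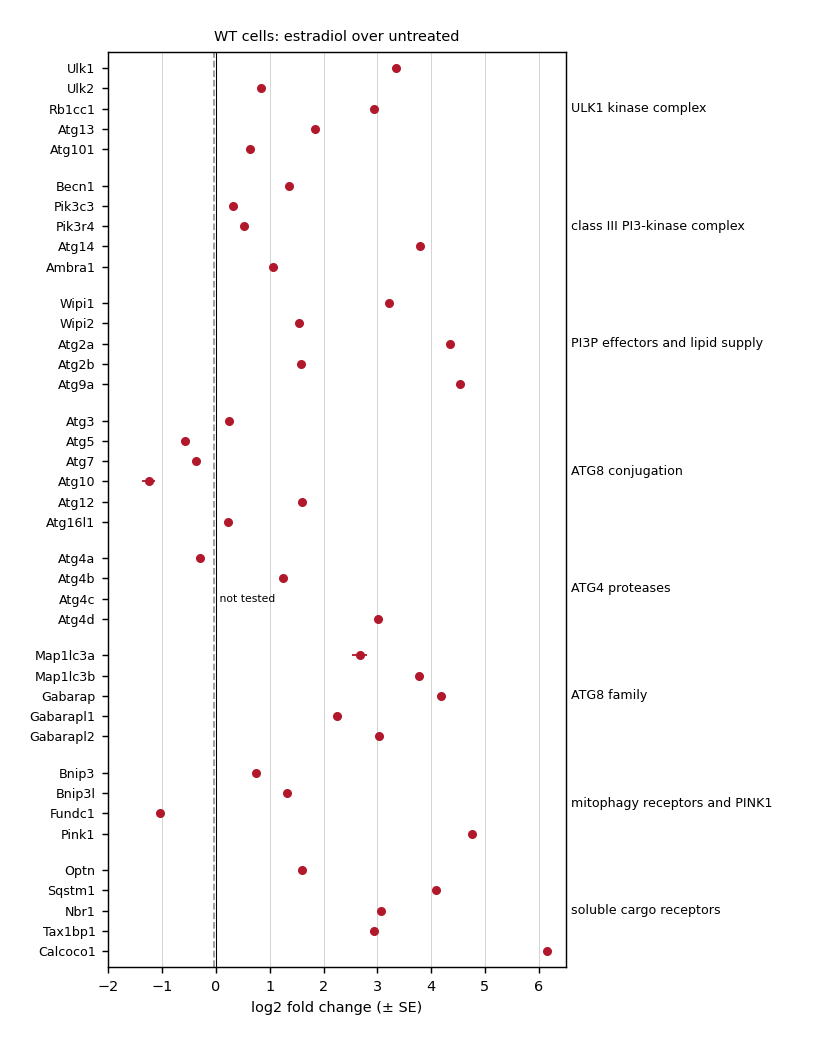
Each point is the log2 fold change of a gene in WT cells with estradiol over untreated WT cells, with its SE as a bar, filled where it is called. The dashed line marks the median of all tested genes at -0.03. The points of the cargo receptors, the ATG8 family and the lipid supply group all lie to the right of 1, and the conjugation enzymes spread around 0.

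All 5 genes of the ULK1 complex rose, with a median log2 fold change of 1.84. Ulk1 encodes the kinase that starts autophagosome formation and had 207, 200.004 and 208 CPM with estradiol, against 21.0, 20.7 and 19.1 CPM in untreated cells (log2 fold change 3.34, SE 0.04, adjusted p = 1.02e-34). The 2 groups were far apart. Rb1cc1, the scaffold of the complex also known as FIP200, averaged 420.1 ± 5.14 CPM with estradiol against 55.2 ± 1.57 CPM without. The adaptor genes Atg13 and Atg101 had log2 fold changes of 1.84 and 0.64, and the paralog Ulk2 had 0.85. Per length of transcript, Ulk1 made up 85.2% ± 0.860 of the summed TPM of Ulk1 and Ulk2 with estradiol and 51.6% ± 2.88 without (SD, n = 3 each), so the pair was nearly level in untreated cells.

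All 5 genes of the PI3-kinase complex rose too (median 1.07), but unevenly. Atg14, the subunit that brings the kinase to sites of autophagosome formation, had 183, 181 and 183 CPM with estradiol and 12.6, 13.1 and 13.7 CPM without (log2 fold change 3.79, SE 0.04, adjusted p = 2.25e-36). Becn1, a subunit with a scaffold role, averaged 244 ± 4.58 CPM with estradiol against 94.6 ± 2.16 CPM without. The catalytic subunit gene Pik3c3 and the regulatory subunit gene Pik3r4 had log2 fold changes of only 0.33 and 0.52, and Ambra1, a regulator that binds beclin 1, had 1.07. On log2(TPM + 1) Pik3c3 was no longer called (log2 0.06, adjusted p = 0.171 by limma-trend). Becn1 shares 3104 exonic bases with Cntd1 on the opposite strand. Whether the counting used strand is not given, but Cntd1 averaged at most 1.76 CPM in any group.

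The group of PI3P effectors and lipid supply had the largest median of the 8 groups, 3.21, and all 5 of its genes rose by more than 2-fold. Atg9a, a lipid scramblase in the vesicles that seed autophagosomes, had 613, 605 and 614 CPM with estradiol and 25.9, 27.7 and 26.0 CPM without (log2 fold change 4.53, SE 0.03, adjusted p = 2.47e-39). Atg2a, a lipid transfer protein, had 596, 587 and 592 CPM with estradiol and 29.4, 28.8 and 28.6 CPM without (log2 fold change 4.35, SE 0.04, adjusted p = 1.86e-29). Neither gene had a library near the range of the other group. The second ATG2 gene, Atg2b, was the more abundant one in untreated cells and rose less (log2 1.58): the share of Atg2a in the summed TPM of both was 68.4% ± 0.698 with estradiol and 28.6% ± 0.850 without (SD, n = 3). Wipi1 and Wipi2, which bind PI3P, had log2 fold changes of 3.21 and 1.55.

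The conjugation enzymes were the exception. Of 6 genes 3 rose and 3 fell, with a median of -0.07. Atg10, the E2-like enzyme that joins ATG12 to ATG5, fell to 2.55, 2.96 and 2.70 CPM with estradiol, against 6.82, 5.88 and 6.70 CPM in untreated cells (log2 fold change -1.25, SE 0.12, adjusted p = 3.82e-11). Atg5 fell to 13.5, 12.5 and 10.6 CPM with estradiol, against 18.5, 17.8 and 18.2 CPM without (log2 fold change -0.57, SE 0.07, adjusted p = 1.78e-08). Atg7, the E1-like enzyme on which both conjugation arms depend, fell to 21.3, 20.1 and 21.1 CPM with estradiol, against 26.6, 27.1 and 27.2 CPM without (log2 fold change -0.37, SE 0.06, adjusted p = 5.15e-07). In all 3 genes every library with estradiol lay below every untreated one. Atg12 rose, with 119 ± 0.955 CPM with estradiol against 38.97 ± 1.23 CPM without. Atg3, the E2-like enzyme of the ATG8 arm, and Atg16l1, which anchors the ATG12-ATG5 conjugate at the membrane, rose by the counts (log2 0.25 and 0.23) but had -0.03 and -0.22 on log2(TPM + 1), where the median of all genes moved to -0.23. With TMM factors on TPM both genes remained called higher. The length that RSEM gave Atg16l1 averaged 2935 bases with estradiol and 2615 bases without, and that of Atg3 2060 and 2058 bases. The part of length in these values was not tested.

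Among the ATG4 proteases, which trim ATG8 proteins and release them from membranes, Atg4b was the most abundant in all groups and rose to 221 ± 3.09 CPM with estradiol, against 92.4 ± 0.982 CPM without. Atg4d rose more, with a log2 fold change of 3.02. It shares 1405 exonic bases with Kri1 on the opposite strand, which had a log2 fold change of 0.66. Atg4a fell slightly (log2 fold change -0.29, SE 0.08, adjusted p = 0.000881), a call that was lost on log2(TPM + 1) with TMM factors (log2 -0.13, adjusted p = 0.205 by limma-trend).

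All 5 ATG8 family genes rose, with a median of 3.02. Gabarap had 1094, 1083 and 1084 CPM with estradiol and 59.3, 59.3 and 60.2 CPM without (log2 fold change 4.19, SE 0.03, adjusted p = 3.74e-40). Map1lc3b, the LC3 gene most used as a marker of autophagosomes, had 760.4, 762 and 743 CPM with estradiol and 56.0, 54.1 and 55.7 CPM without (log2 fold change 3.77, SE 0.03, adjusted p = 3.06e-39). Gabarapl2 had 211, 213 and 217 CPM with estradiol and 26.3, 26.4 and 26.1 CPM without (log2 fold change 3.02, SE 0.03, adjusted p = 2.09e-36). Each of the 3 genes was at least 7 times as high in every estradiol-treated library as in any untreated one. Gabarapl1 had 191, 194 and 199.9 CPM with estradiol and 39.3, 40.3 and 42.4 CPM without (log2 fold change 2.26, SE 0.04, adjusted p = 3.08e-26). Map1lc3a was the lowest of the family, with 5.12, 4.53 and 5.04 CPM with estradiol and 0.775, 0.817 and 0.719 CPM without (log2 fold change 2.67, SE 0.13, adjusted p = 1.24e-17). It was scarcely counted in untreated cells, and no library of one group reached the range of the other.

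The make-up of the family moved with its level. Added up, the TPM of the 5 genes was 3389 ± 16.3 with estradiol and 299.1 ± 3.05 without (SD, n = 3 each). Gabarap took 56.4% ± 0.203 of that sum with estradiol and 42.3% ± 0.503 without, while Gabarapl1 took 5.04% ± 0.128 with estradiol and 14.5% ± 0.313 without. Map1lc3b held 28.6% ± 0.129 with estradiol and 26.5% ± 0.914 without, and Gabarapl2 9.68% ± 0.195 with estradiol and 16.1% ± 0.219 without. The differences for Gabarap, Gabarapl1 and Gabarapl2 were many times the SD between libraries.

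**Figure D3:**
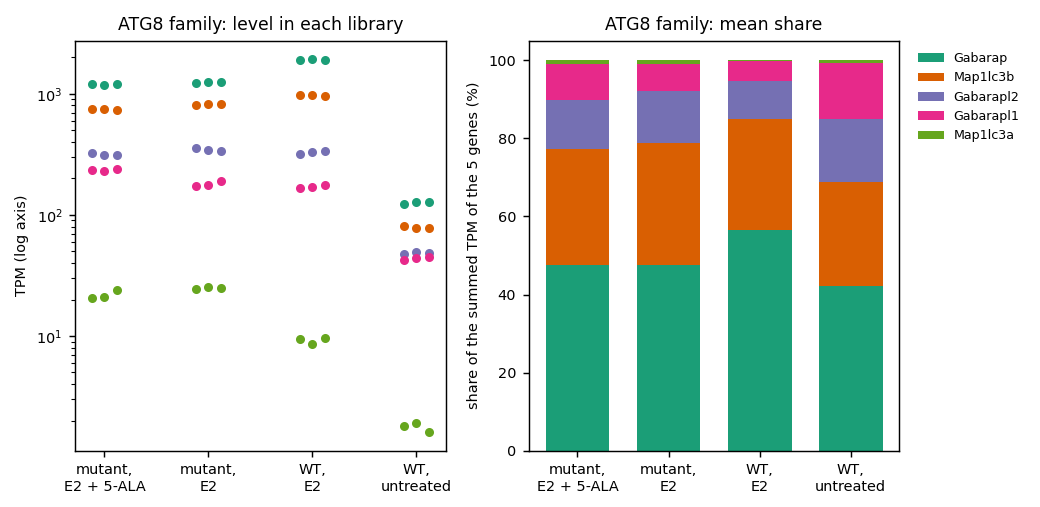
The left panel gives the TPM of the 5 ATG8 genes in each library on a log axis, and the right panel their mean shares of the summed TPM. Gabarap is the most abundant member in all 4 groups, and its share is 56.4% in WT cells with estradiol, against 42.3% in untreated WT cells.

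The mitophagy genes split by receptor. Pink1, a kinase that accumulates on damaged mitochondria, had 157, 155 and 154 CPM with estradiol and 6.15, 4.94 and 5.83 CPM without (log2 fold change 4.76, SE 0.04, adjusted p = 2.27e-36). Bnip3l had 499, 499.6 and 501 CPM with estradiol and 199, 195 and 208 CPM without (log2 fold change 1.32, SE 0.03, adjusted p = 2.73e-28). Its paralog Bnip3 had 49.9, 51.7 and 51.8 CPM with estradiol and 30.2, 31.3 and 29.7 CPM without (log2 fold change 0.75, SE 0.04, adjusted p = 5.05e-18). All 3 genes were higher in every estradiol-treated library than in any untreated one. Fundc1, an outer-membrane receptor known from hypoxia, went the other way, with 10.2, 12.1 and 11.5 CPM with estradiol and 23.6, 21.6 and 23.9 CPM without (log2 fold change -1.04, SE 0.07, adjusted p = 6.77e-15).

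All 5 cargo receptors rose, with a median log2 fold change of 3.07. Calcoco1, a receptor for parts of the endoplasmic reticulum, showed the largest change of the 38 genes, with 656, 649 and 656 CPM with estradiol and 8.35, 9.15 and 10.2 CPM without (log2 fold change 6.14, SE 0.04, adjusted p = 1.82e-40), a 70.7-fold difference. Sqstm1, which encodes the ubiquitin-binding receptor p62, had 1708, 1672 and 1693 CPM with estradiol and 99.4, 102 and 99.0 CPM without (log2 fold change 4.08, SE 0.03, adjusted p = 6.26e-40), or 16.9-fold. Nbr1, Tax1bp1 and Optn, further receptors for ubiquitin-marked cargo, had log2 fold changes of 3.07, 2.94 and 1.597. The summed TPM of the 5 receptor genes was 2978 ± 26.6 with estradiol and 286 ± 3.40 without (SD, n = 3 each). Sqstm1 shares 580 exonic bases with Mrnip on the opposite strand. Mrnip had at most 8.86 CPM on average in any group and moved the opposite way in this comparison (log2 -2.50).

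The genes the results turn on lie apart in the genome. In GENCODE M21, on build GRCm38, the protein-coding gene Calcoco1 (ENSMUSG00000023055) spans chromosome 15 from 102706777 to 102722178. Pink1 (ENSMUSG00000028756) spans chromosome 4 from 138313409 to 138326307, Sqstm1 (ENSMUSG00000015837) chromosome 11 from 50199366 to 50210827 and Bnip3l (ENSMUSG00000022051) chromosome 14 from 66985239 to 67008877, all on the minus strand. On the plus strand, Gabarap (ENSMUSG00000018567) spans chromosome 11 from 69991143 to 69994951, Gabarapl1 (ENSMUSG00000030161) chromosome 6 from 129533160 to 129542346 and Map1lc3a (ENSMUSG00000027602) chromosome 2 from 155276297 to 155278073.

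The upstream sequences of 3 of these genes are shown because Calcoco1 and Pink1 had the largest estradiol rises of the 38 genes, and Sqstm1, chosen after its values were seen, had the largest change in mutant cells without 5-ALA over WT cells and with 5-ALA over without. Each is the RefSeq window from 250 bases before to 50 bases after the start of the gene, on build GRCm38.p6 and the minus strand of chromosomes 15, 4 and 11, in lower case, with any letters of the GATA motif in capitals.
Calcoco1, chr15:102722129-102722428: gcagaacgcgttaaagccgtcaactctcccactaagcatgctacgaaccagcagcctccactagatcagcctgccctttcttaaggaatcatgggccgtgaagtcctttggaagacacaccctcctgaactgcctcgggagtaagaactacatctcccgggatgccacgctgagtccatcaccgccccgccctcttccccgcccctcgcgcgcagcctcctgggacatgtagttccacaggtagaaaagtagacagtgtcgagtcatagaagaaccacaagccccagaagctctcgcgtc
Pink1, chr4:138326247-138326546: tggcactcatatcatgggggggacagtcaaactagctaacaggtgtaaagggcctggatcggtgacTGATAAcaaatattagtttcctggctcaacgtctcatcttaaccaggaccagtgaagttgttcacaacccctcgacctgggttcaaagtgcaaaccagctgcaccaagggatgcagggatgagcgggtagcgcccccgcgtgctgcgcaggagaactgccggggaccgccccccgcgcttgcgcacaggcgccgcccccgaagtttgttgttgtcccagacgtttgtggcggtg
Sqstm1, chr11:50210771-50211070: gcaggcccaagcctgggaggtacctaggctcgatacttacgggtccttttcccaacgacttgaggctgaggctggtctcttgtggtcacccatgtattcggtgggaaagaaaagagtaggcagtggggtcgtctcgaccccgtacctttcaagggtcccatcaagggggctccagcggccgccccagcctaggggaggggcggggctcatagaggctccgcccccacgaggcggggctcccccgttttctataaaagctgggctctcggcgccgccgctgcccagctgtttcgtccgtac

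Windows were at hand for 32 of the 39 genes, 36 windows in all. The GATA motif was searched on both strands as the letters AGATAA, the variant TGATAA, the variant AGATAG and the variant TGATAG. It was found in 4 of the 36 windows (11.1%), those of Atg4a, Atg4d, Nbr1 and Pink1, against 29.8% of 32851 windows of all genes. In Pink1 it is the TGATAA that begins 184 bases before the start, as the capitals show. The E-box CACGTG, which reads the same on both strands, was in 5 windows (13.9%; Atg14, Atg3, Atg5, Atg7 and Bnip3) against 7.15% of all windows. The core of the antioxidant response element, TGACNNNGC, was in 4 (11.1%; Atg13, Map1lc3b, Tax1bp1 and Ulk2) against 12.4%, and the FOXO motif GTAAACA was in 0 against 3.65%. None of the motifs contains another. A match is only a description of these letters, and a window without one says nothing of more distant sites.

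What differs in mutant cells, with their low Alas2 expression, was asked by setting them against WT cells, all given estradiol but not 5-ALA. Most of the machinery was lower in mutant cells: 26 of the 38 genes were lower, 8 higher and 4 not called. Of all tested genes 68.8% were called, 35.1% higher and 33.6% lower. The median log2 fold change was -0.20 over the 38 genes and -0.01 over all genes. The changes were mostly small, and 3 of 38 genes (7.89%) differed by 2-fold or more, against 13.1% of all genes. On log2(TPM + 1), where the median of all genes was 0.12, 13 members were higher and 15 lower. Of the 12115 tested genes 2326 were then lower, and the number higher stayed within 1.5 times the 4258 of the main test. Of the calls given, 7 of the 8 higher and 15 of the 26 lower were made under all 5 scalings and tests tried. Here and below this was counted for members only, so no share of all genes stands beside it. Erythroid and megakaryocyte marker sums were also lower in mutant cells, as given above, and their part in these differences was not tested. Since no untreated mutant cells were sequenced, a difference that was present before estradiol cannot be told apart from one that arose with it. The number of mutant lines is not given, so loss of Alas2 expression cannot be told apart from other differences between mutant and WT cells.

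The cargo receptors held the largest falls. Sqstm1 fell to 425, 429.5 and 421 CPM in mutant cells, against 1672 to 1708 CPM in WT cells (log2 fold change -1.99, SE 0.02, adjusted p = 8.14e-32), 3.98-fold lower. Calcoco1 fell to 301, 304 and 309 CPM in mutant cells, against 649 to 656 CPM in WT cells (log2 fold change -1.10, SE 0.03, adjusted p = 6.04e-25). Both were still well above their levels in untreated WT cells. Tax1bp1 and Nbr1 fell as well, with log2 fold changes of -0.64 and -0.34. Optn was not called and averaged 259 ± 2.60 CPM in mutant cells and 251 ± 1.96 CPM in WT cells. Mrnip, the overlapping gene on the other strand, was higher in mutant cells (log2 0.99).

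All 5 genes of the ULK1 complex fell. Ulk1 fell to 106, 108 and 106 CPM in mutant cells, against 200.004 to 208 CPM in WT cells (log2 fold change -0.94, SE 0.03, adjusted p = 8.15e-22), and Rb1cc1, Ulk2, Atg13 and Atg101 had log2 fold changes of -0.52, -0.33, -0.32 and -0.28. Atg101 was not called on log2(TPM + 1) (log2 -0.08, adjusted p = 0.209 by limma-trend). In the PI3-kinase complex Atg14 fell to 90.6, 94.2 and 95.3 CPM in mutant cells, against 181 to 183 CPM in WT cells (log2 fold change -0.96, SE 0.03, adjusted p = 5.36e-23), while Becn1 was not called (250.3 ± 2.15 CPM in mutant cells against 244 ± 4.58 CPM in WT cells). Ulk1 and Atg14 in mutant cells were thus near the middle between the untreated and estradiol-treated WT levels, with no overlap with either. Pik3c3 and Ambra1 were slightly lower (log2 -0.19 and -0.20) and Pik3r4 slightly higher (0.14). On log2(TPM + 1) neither Pik3c3 (-0.01, adjusted p = 0.828 by limma-trend) nor Ambra1 (0.07, adjusted p = 0.302) was called. Atg2a, Atg2b and Atg9a had log2 fold changes of -0.45, -0.44 and -0.46, Wipi2 had -0.18, and Wipi1 was not called.

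In the ATG8 family 4 genes fell and 1 rose. Gabarap fell to 602, 624 and 619.7 CPM in mutant cells, against 1083 to 1094 CPM in WT cells (log2 fold change -0.82, SE 0.02, adjusted p = 3.04e-23). Map1lc3b fell to 578, 586 and 588 CPM in mutant cells, against 743 to 762 CPM in WT cells (log2 fold change -0.37, SE 0.02, adjusted p = 5.55e-15). Map1lc3a rose to 11.4, 11.96 and 12.1 CPM in mutant cells, against 4.53 to 5.12 CPM in WT cells (log2 fold change 1.28, SE 0.09, adjusted p = 6.29e-14), the largest rise of the 38 genes. None of the 3 overlapped between groups. Gabarapl1 and Gabarapl2 were called lower by small amounts (log2 -0.11 and -0.08), directions that turned to 0.08 and 0.07 on log2(TPM + 1). Without replicate 1 of the mutant cells Gabarapl1 was not called (adjusted p = 0.0958 by edgeR). The share of Gabarap in the summed TPM of the family was 47.5% ± 0.275 in mutant cells and 56.4% ± 0.203 in WT cells, and that of Gabarapl2 13.2% ± 0.439 in mutant cells and 9.68% ± 0.195 in WT cells.

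The genes that had fallen with estradiol did not move as one. Atg10 was higher in mutant cells, with 4.43, 4.49 and 5.26 CPM in mutant cells against 2.55 to 2.96 CPM in WT cells (log2 fold change 0.79, SE 0.12, adjusted p = 1.51e-06). Fundc1 was higher, with 15.7, 14.2 and 14.8 CPM in mutant cells against 10.2 to 12.1 CPM in WT cells (log2 fold change 0.40, SE 0.07, adjusted p = 1.13e-05), and so was Atg4a, with 11.3, 13.4 and 13.4 CPM in mutant cells against 9.20 to 10.9 CPM in WT cells (log2 fold change 0.38, SE 0.08, adjusted p = 6e-05). For each of them the mutant libraries lay above those of WT cells with estradiol. Atg5 and Atg7 were lower in mutant cells (log2 -0.23 and -0.14), calls that did not hold in every setting: Atg7 had 0.18 on log2(TPM + 1) and 0.01 with TMM factors added. By edgeR Atg7 had an adjusted p = 0.143 without replicate 1 of the WT cells, 0.106 without their replicate 3 and 0.373 without replicate 1 of the mutant cells. Atg5 had an adjusted p = 0.139 by edgeR without replicate 1 of the WT cells and 0.0622 without replicate 2 of the mutant cells, and on log2(TPM + 1) it was not called (-0.01). The comparison with untreated cells and this one share the 3 WT libraries with estradiol, so opposite signs in them are not independent.

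Of the other mitophagy genes, Bnip3 fell to 40.4, 39.5 and 39.8 CPM in mutant cells, against 49.9 to 51.8 CPM in WT cells (log2 fold change -0.36, SE 0.04, adjusted p = 3.82e-10). Bnip3l fell to 463, 449 and 445 CPM in mutant cells, against 499 to 501 CPM in WT cells (log2 fold change -0.15, SE 0.02, adjusted p = 6.53e-06), and Pink1 to 133, 135 and 137 CPM in mutant cells, against 154 to 157 CPM in WT cells (log2 fold change -0.20, SE 0.03, adjusted p = 2.84e-07). The groups did not overlap, but the differences were below 1.3-fold, and on log2(TPM + 1) none of the 3 was called. With TMM factors added, Bnip3 and Bnip3l were called lower and Pink1 was not called (-0.21, adjusted p = 0.116 by limma-trend). Atg4d and Atg3 were higher in mutant cells (log2 0.31 and 0.18), Atg12 was lower (-0.22; not called on log2(TPM + 1), at -0.02), and Atg16l1 was not called (83.6 ± 0.775 CPM in mutant cells against 83.0 ± 1.55 CPM in WT cells).

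**Figure D4:**
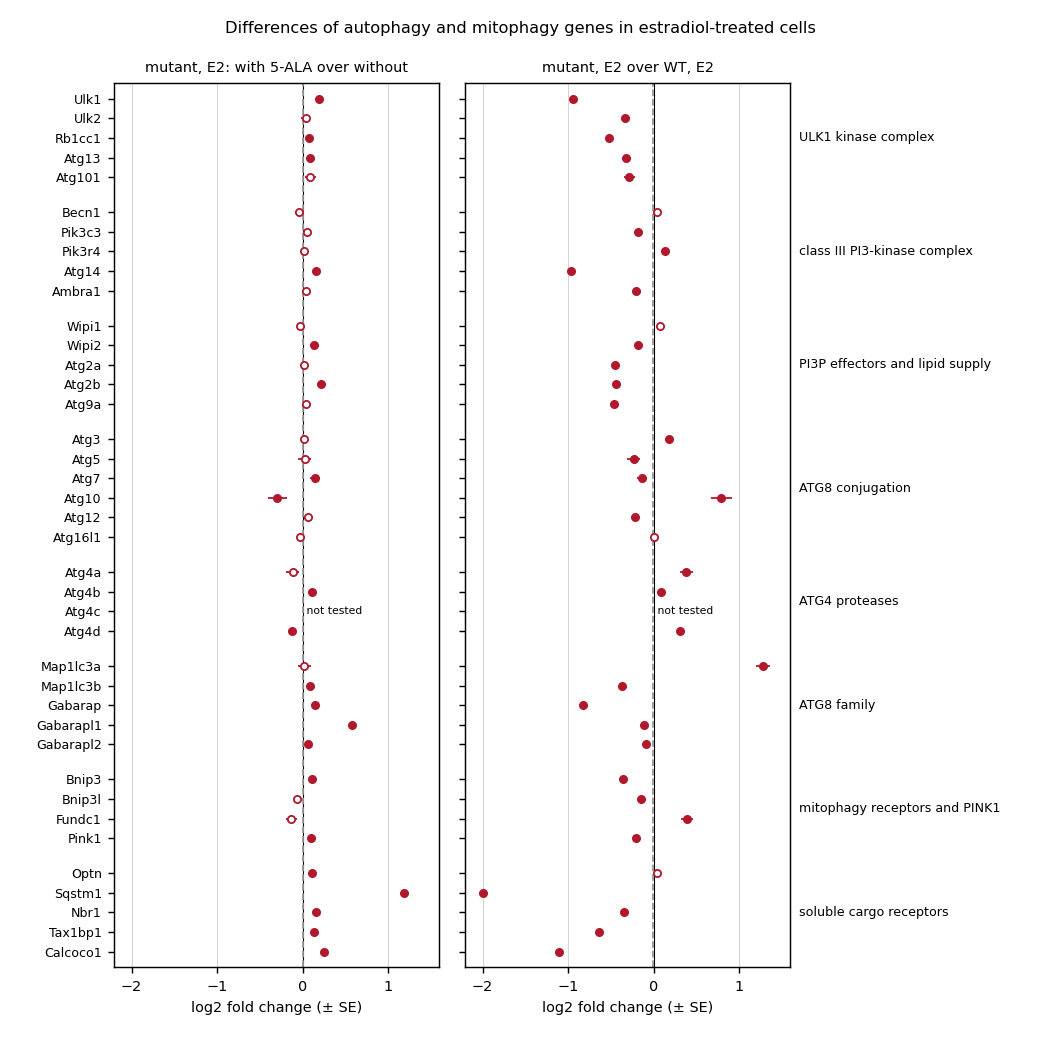
Points are log2 fold changes with SE bars, filled where called: on the left mutant cells with 5-ALA over mutant cells without it, on the right mutant over WT cells, all with estradiol. Dashed lines mark the median of all tested genes. Sqstm1 lies farthest from 0 in both panels, at 1.19 and -1.99, and Gabarapl1 is at 0.57 on the left. All other points on the left are within 0.3 of 0, and of the 19 called rises there 4 kept their direction under all 5 scalings and tests.

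The third comparison, mutant cells with 5-ALA against mutant cells without it, both with estradiol, asks what changes when the product of ALAS2 is supplied. Sqstm1 and Gabarapl1 stood out from the rest of the list. Sqstm1 rose to 945, 978 and 984 CPM with 5-ALA, against 421 to 429.5 CPM without (log2 fold change 1.19, SE 0.02, adjusted p = 5.91e-26), 2.28-fold higher. Gabarapl1 rose to 262, 267 and 276 CPM with 5-ALA, against 172 to 190.1 CPM without (log2 fold change 0.57, SE 0.03, adjusted p = 1.25e-13). In both genes all libraries with 5-ALA lay above all without. Sqstm1 and Gabarapl1 were also the only called rises among the 38 genes that remained called under all 5 scalings and tests tried. Gabarapl1 shares 570 exonic bases with 1700101I11Rik on the opposite strand, which rose by a log2 fold change of 0.58 but averaged only 4.76 CPM with 5-ALA and 3.14 CPM without.

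By the counts 19 of the 38 genes were higher with 5-ALA, 2 lower and 17 not called, beside 42.6% of all genes called, 21.6% higher and 21.0% lower. The median log2 fold change was 0.07 over the 38 genes and 0.01 over all. These small rises depend on the scale: on log2(TPM + 1), where the median of all genes was -0.15, 2 members were higher and 21 lower. Of the 12115 tested genes 806 were then higher and 5719 lower. With TMM factors applied to the TPM values that median was -0.00, and the counts were within 1.5 times those of the main test. Of the 19 rises 4 kept their direction under all 5 scalings and tests. The erythroid and megakaryocyte marker sums were higher with 5-ALA, as given above, and their part was not tested.

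All 5 cargo receptors were among the 19. Calcoco1 had 359.6, 361 and 369 CPM with 5-ALA, against 301 to 309 CPM without (log2 fold change 0.25, SE 0.03, adjusted p = 2.55e-09), and 0.04 on log2(TPM + 1), where it was not called. Tax1bp1, Nbr1 and Optn had log2 fold changes of 0.13, 0.15 and 0.11, which turned negative on log2(TPM + 1). Atg2b had 422, 421 and 419 CPM with 5-ALA, against 360.4 to 364 CPM without (log2 fold change 0.22, SE 0.02, adjusted p = 7.62e-10), and 0.02 on log2(TPM + 1), where it was not called. Ulk1, Atg14, Wipi2 and Atg4b were higher by 0.20, 0.16, 0.13 and 0.11 on the log2 scale of the counts, and all 4 were slightly negative on log2(TPM + 1). Their libraries with and without 5-ALA lay apart, but by less than 1.2-fold on average. Rb1cc1, Atg13 and Atg7 were also among the 19 by the counts, and all 3 were negative on log2(TPM + 1), at -0.09, -0.12 and -0.07. Rb1cc1 averaged 307 ± 6.65 CPM with 5-ALA and 292 ± 12.1 CPM without, Atg13 74.5 ± 1.22 CPM with 5-ALA and 69.7 ± 1.97 CPM without, and Atg7 20.9 ± 0.581 CPM with 5-ALA and 18.7 ± 1.58 CPM without. The libraries of Rb1cc1 overlapped. Rb1cc1 and Atg13 were not called with DESeq2 (adjusted p = 0.0851 and 0.0936), and by edgeR each lost its call without some single libraries: Rb1cc1 without replicate 2 or 3 of the mutant cells without 5-ALA, or replicate 1 or 2 of those with it (adjusted p = 0.068, 0.227, 0.107 and 0.115), and Atg13 without replicate 1 or 2 of the mutant cells without 5-ALA, or replicate 2 of those with it (0.169, 0.0505 and 0.144). Atg7 was not called with DESeq2 (adjusted p = 0.118) or by edgeR with DESeq2 size factors (0.0506). It also lost its call by edgeR without replicate 1 of the mutant cells without 5-ALA, or replicate 2 or 3 of those with it (adjusted p = 0.270, 0.139 and 0.127).

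Differences in the other ATG8 genes were small with 5-ALA. Gabarap had 672, 674 and 691 CPM with 5-ALA, against 602 to 624 CPM without (log2 fold change 0.14, SE 0.02, adjusted p = 6.03e-06), Map1lc3b 622 ± 8.74 CPM with 5-ALA against 584 ± 5.51 CPM without, and Gabarapl2 209.7 ± 1.53 CPM with 5-ALA against 202 ± 2.41 CPM without. All 3 were called higher by the counts and negative on log2(TPM + 1). Gabarapl2 was not called with DESeq2 (adjusted p = 0.131) or by edgeR with DESeq2 size factors (0.0602). It also lost its call by edgeR without replicate 1 or 2 of the mutant cells without 5-ALA, or replicate 2 or 3 of those with it (adjusted p = 0.0986, 0.176, 0.169 and 0.193). Map1lc3a was not called, with 11.1, 11.8 and 13.2 CPM with 5-ALA against 11.4, 11.96 and 12.1 CPM without, and its libraries overlapped. The share of Gabarapl1 in the summed TPM of the family, which does not depend on the scaling between libraries, was 9.30% ± 0.143 with 5-ALA and 6.92% ± 0.266 without. That of Gabarap was 47.6% ± 0.220 with 5-ALA and 47.5% ± 0.275 without, a difference within the SD between libraries on this scale. From expected counts, which take no account of length, it was 37.9% ± 0.235 with 5-ALA and 38.6% ± 0.352 without.

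Differences in the mitophagy genes were small as well. Bnip3 had 42.6, 43.0 and 43.6 CPM with 5-ALA, against 39.5 to 40.4 CPM without (log2 fold change 0.11, SE 0.04, adjusted p = 0.0123), and Pink1 had 139.9, 146 and 147 CPM with 5-ALA, against 133 to 137 CPM without (log2 fold change 0.09, SE 0.03, adjusted p = 0.00721). Both turned negative on log2(TPM + 1). Bnip3 was not called with DESeq2 (adjusted p = 0.0852). It also lost its call by edgeR without replicate 2 of the mutant cells without 5-ALA, or replicate 2 or 3 of those with it (adjusted p = 0.0602, 0.0565 and 0.0816). Pink1 was not called by edgeR without replicate 1 of the mutant cells without 5-ALA, or replicate 2 or 3 of those with it (adjusted p = 0.0542, 0.0669 and 0.0699). Bnip3l and Fundc1 were not called, with 446, 429 and 427 CPM with 5-ALA against 463, 449 and 445 CPM without, and 13.8, 13.2 and 13.6 CPM with 5-ALA against 15.7, 14.2 and 14.8 CPM without. Atg10 fell to 4.18, 3.29 and 4.11 CPM with 5-ALA, against 4.43 to 5.26 CPM without (log2 fold change -0.29, SE 0.11, adjusted p = 0.0392), a call lost with DESeq2 (adjusted p = 0.118), and by edgeR without replicate 3 of the mutant cells without 5-ALA (adjusted p = 0.206) or replicate 2 of those with it (0.202). Atg4d fell to 117, 123 and 126 CPM with 5-ALA, against 130.2 to 137 CPM without (log2 fold change -0.13, SE 0.03, adjusted p = 0.00124), and was called under all 5 scalings and tests.

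**Figure D5:**
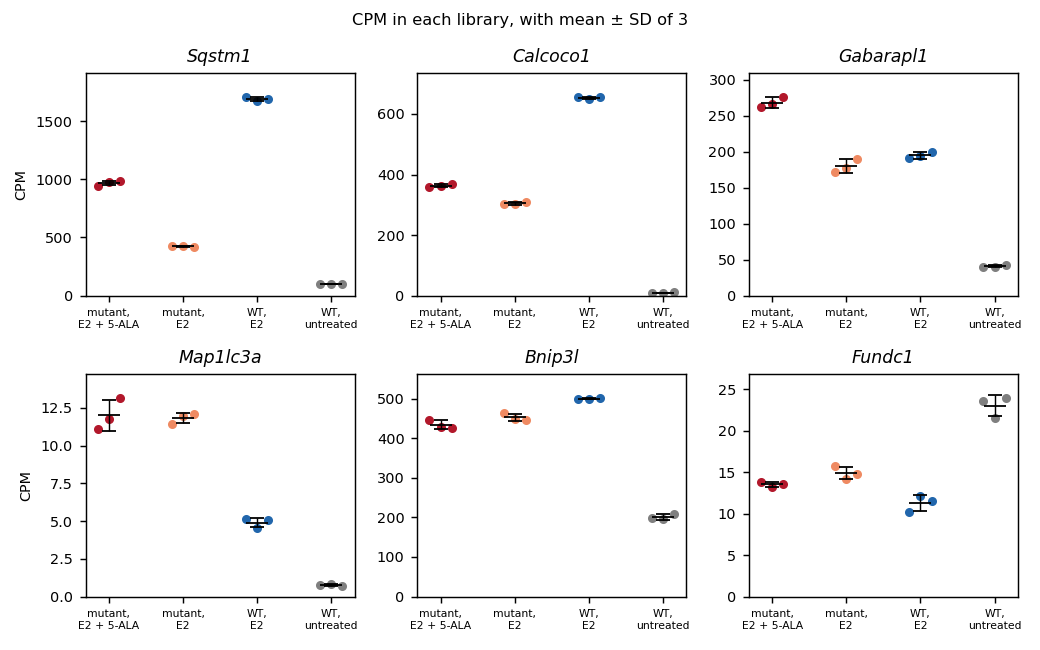
CPM of 6 genes in each library (points), with the mean and SD of the 3 libraries of a group in black and axes from 0. Sqstm1 lies between 945 and 984 CPM in mutant cells with 5-ALA, between 421 and 429.5 CPM in mutant cells without it, and between 1672 and 1708 CPM in WT cells with estradiol.

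The last comparison sets mutant cells with 5-ALA against WT cells, both with estradiol, and shows which differences were present with 5-ALA. Of the 38 genes 10 were higher in the mutant cells, 22 lower and 6 not called, beside 62.3% of all genes called, 33.3% higher and 29.0% lower. Of these calls, all 10 that were higher and 20 of the 22 that were lower were made under all 5 scalings and tests. The comparison shares libraries with both previous ones, so the values of a gene in them are set side by side only.

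Sqstm1 had 945 to 984 CPM in mutant cells with 5-ALA and 1672 to 1708 CPM in WT cells (log2 fold change -0.80, SE 0.02, adjusted p = 1.7e-22). Its 4 groups stood in a clear order, untreated WT cells lowest, then mutant cells, mutant cells with 5-ALA and WT cells with estradiol, and no neighbouring groups overlapped. Calcoco1 stood in the same order but with a smaller step between the mutant groups, and had a log2 fold change of -0.85 in mutant cells with 5-ALA over WT cells. Atg14, Ulk1 and Gabarap had -0.80, -0.74 and -0.68. Tax1bp1, Rb1cc1, Atg2a and Atg9a had -0.51, -0.45, -0.43 and -0.42.

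Gabarapl1 was in another order. It was highest in mutant cells with 5-ALA, with a log2 fold change of 0.46 over WT cells (SE 0.03, adjusted p = 2.55e-12), and the ranges of mutant and WT cells without 5-ALA, 172 to 190.1 CPM in mutant cells and 191 to 199.9 CPM in WT cells, lay next to each other. Map1lc3a was 1.30 higher than in WT cells on the log2 scale, about the value of 1.28 in mutant cells without 5-ALA. Atg10, Fundc1 and Atg4a had 0.50, 0.27 and 0.26. Optn was higher (0.15), as were Atg3 (0.20), Atg4b (0.19), Atg4d (0.19) and Pik3r4 (0.16). Becn1, Wipi1 and Atg16l1 were called in neither mutant comparison nor with 5-ALA: their means over the 3 groups with estradiol ran from 242.8 to 250.3 CPM, 37.8 to 39.96 CPM and 82.2 to 83.6 CPM.

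A wider list of 69 autophagy genes, regulators of initiation, mitophagy, selective receptors, fusion with lysosomes, and nutrient signalling with transcription factors, was measured for context, and 65 were tested. Only genes averaging 1 CPM or more in the groups compared are named from it. With estradiol in WT cells 43 were higher and 19 lower, with a median log2 fold change of 0.84, beside 43.3% of all genes higher and 46.4% lower. All 9 tested selective receptors and adaptors were higher, as were 11 of 14 fusion genes, while 7 of 12 mitophagy genes (58.3%) were lower. Trp53inp1, which binds ATG8 proteins, had 3761 ± 63.5 CPM with estradiol and 44.2 ± 0.342 CPM without. Plekhm1, an adaptor for fusion with lysosomes, had a log2 fold change of 3.85, the transcription factor gene Foxo3 3.65 and Wdr45, a relative of the WIPI genes, 3.20. Nipsnap1, whose product marks mitochondria for mitophagy, fell to 0.518 ± 0.141 CPM with estradiol, against 20.03 ± 0.867 CPM without, and Phb2, a prohibitin and inner-membrane receptor, fell to 56.4 ± 1.95 CPM with estradiol, against 363 ± 2.23 CPM without. Atg16l2 and the mitochondrial phosphatase gene Pgam5 had -2.05 and -1.59.

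In mutant against WT cells with estradiol 29 of the 65 (44.6%) were higher and 26 (40.0%) lower, beside 35.1% and 33.6% of all genes. On log2(TPM + 1) 10 of the 65 were lower, beside 2326 of the 12115 tested genes, and both numbers higher stayed within 1.5 times those of the main test. Vps18, a subunit of the tethering complex for lysosomes, was higher, with 127 ± 5.64 CPM in mutant cells against 62.0 ± 2.28 CPM in WT cells, as were Trp53inp2 (0.91), Rubcn, an inhibitor of the PI3-kinase complex (0.68), and Tfe3, a transcription factor of lysosomal genes (0.65). Trp53inp1, Foxo3, Wdr45 and Ccpg1, a receptor for the endoplasmic reticulum, were lower, with -0.94, -0.66, -0.62 and -0.46. With 5-ALA 19 were higher and 22 lower, beside 21.6% and 21.0% of all genes. On log2(TPM + 1) 1 was higher and 41 lower, beside 806 higher and 5719 lower of the 12115 tested genes. Vamp8, a SNARE of autophagosome fusion, fell to 178 ± 2.62 CPM with 5-ALA, against 244 ± 10.1 CPM without, while Vdac1, Stx17 and Rubcn had -0.36, -0.27 and -0.24. Sec62, Tfeb, Vcp and Fyco1 were higher by 0.26, 0.25, 0.24 and 0.22, of which Tfeb, Vcp and Fyco1 were not called on log2(TPM + 1). Tfeb was also not called by edgeR without replicate 2 of the mutant cells without 5-ALA (adjusted p = 0.111). In mutant cells with 5-ALA over WT cells 25 were higher and 18 lower, beside 33.3% and 29.0% of all genes. Vps18, Trp53inp2, Tfeb and the ferritin receptor gene Ncoa4 had 0.98, 0.68, 0.61 and 0.48, and Trp53inp1, Foxo3, Zfyve1 and Wdr45 had -1.16, -0.65, -0.44 and -0.41.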

How the data were processed

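RNA of 12 libraries was prepared from TRIzol-purified total RNA with a TruSeq kit, per the labels' protocols. CASAVA 1.8.2, RSEM 1.2.20, Bowtie 1.1.1 and build mm10 are named in the submitters' processing notes. Read length, annotation release and use of strand were not given in the sources used here. Per the file headers, the authors deposited expected counts per gene from RSEM, in which shared reads are divided by likelihood, so that close paralogs depend on each other. The authors' tables also give TPM, scaled for transcript length and depth, FPKM, which was not used here, and each gene's mean length.

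Symbols and exons came from GENCODE M21, which matched 24746 of 25097 identifiers. Expected counts were rounded and filtered by group (filterByExpr), which kept 12115 genes, scaled by TMM and fitted as 4 group means with edgeR 4.0.16 in R 4.3.3. The quasi-likelihood F test was used with robust estimation and Benjamini-Hochberg adjustment over all tested genes. As an approximation, the SE is the size of the log2 fold change divided by the root of F. The common biological coefficient of variation was 0.0334, so small differences pass the test. Libraries of 20309085 to 43548387 expected counts limit precision mainly for genes of a few CPM. The scripts were tested on simulated data.

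The members, lists and alternatives were chosen with earlier results of these data known. Values by library, or their range, are given for the mitophagy genes and most of the ATG8 family. They are also given, in each comparison but the last, for up to 4 of the largest called rises and falls among members with at least 1 CPM on average. Gabarapl2 in mutant cells, and Map1lc3b, Atg14 and Ulk1 with 5-ALA, are given by means or log2 fold changes only. Of the wider list the 4 largest per direction with the same minimum are named. Further members given by library were chosen after their values were seen. Alternatives were DESeq2 1.42.0 size factors and test, no filter, a mean of at least 1 CPM, limma-trend (limma 3.58.1) on log2(TPM + 1), a replicate block and leaving out each library. Limma-trend on TPM with TMM factors was added after seeing the data. The 5 scalings and tests are the main one, both of DESeq2 and both on TPM. Calls and directions kept under all 5 were counted for members only, so no share of all genes stands beside them. Upstream windows came from RefSeq tables of GRCm38.p6.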

Additional observations from a re-analysis of the deposited data

How the results depend on the processing

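The estradiol counts and those of mutant cells with 5-ALA over WT cells stayed within 1.5 times under all alternatives. On log2(TPM + 1), members in mutant over WT cells came to 13 higher and 15 lower, and members with 5-ALA over without to 2 higher and 21 lower. The wider list then had 10 lower in mutant cells, and 1 higher and 41 lower with 5-ALA, and all genes had 2326 lower in mutant cells, and 806 higher and 5719 lower with 5-ALA. With TMM factors on TPM all 24 counts were within 1.5 times. With no filter on low counts 12 members were higher with 5-ALA. Leaving out single libraries gave 1 to 3 members lower with 5-ALA and 13 to 20 higher. The 1 was without replicate 2 of the mutant cells with 5-ALA.

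On log2(TPM + 1) the sign turned for Atg3 (-0.0285) and Atg16l1 (-0.22) with estradiol, and for Ambra1 (0.0689), Atg7 (0.18), Gabarapl1 (0.0785) and Gabarapl2 (0.0734) in mutant cells. With TMM factors it turned for Atg7 in mutant cells (0.01). With 5-ALA on log2(TPM + 1) it turned for 15 of the 19 rises: Ulk1 (-0.0062), Rb1cc1 (-0.0939), Atg13 (-0.12), Atg14 (-0.0374), Wipi2 (-0.0750), Atg7 (-0.0658), Atg4b (-0.10), Map1lc3b (-0.14), Gabarap (-0.0514), Gabarapl2 (-0.12), Bnip3 (-0.11), Pink1 (-0.0849), Optn (-0.10), Nbr1 (-0.0535) and Tax1bp1 (-0.0768). The cause was not tested beyond the shift of the median of all genes given in the report. Shares of the ATG8 family computed from expected counts, with no account of length, differed from the TPM shares in all 20 cases by more than 1 SD.

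The replicate numbers did not pair the samples: deviations of same-numbered libraries correlated at -0.10 to 0.07 over 18 pairs. With a replicate block, 33 members were higher and 5 lower with estradiol, and the block changed none of the 125 member calls. Depth limits genes of a few CPM, such as Atg10 and Map1lc3a, most.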
